A study of Homo sapiens with 6 samples.

Results

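The genes described here are 10 components and outputs of the circadian clock whose activity has been tied to NAD: CLOCK, PER1, PER2, PER3, CRY1, CRY2, NR1D1, NR1D2, DBP and BHLHE40. Their rows were taken by gene symbol, and each symbol matched 1 row of the 50868 genes in the expression table. All 10 passed the filter on low counts and were among the 15213 genes tested. RNA had been sequenced from B4G12 cells, which come from the human corneal endothelium (the layer that keeps the cornea clear by pumping fluid out of it) and have been immortalised. The 3 siControl libraries came from cells treated with a control siRNA, and the 3 siNAMPT libraries from cells treated with an siRNA against NAMPT. Both groups share the line and a genotype given as WT. B4G12 is a single line, and the siRNA sequences, the dose, the time after transfection, any synchronisation of the cells and the hour of harvest were not given in the sources used here. Each group was sampled as 1 state, so neither phase nor amplitude of a rhythm was measured. Whether replicates were separate cultures is not stated in the labels, and the p-values thus cover the spread between these libraries only, which may be technical.

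The mammalian clock is a transcriptional feedback loop. CLOCK pairs with BMAL1, and the pair binds E-box sequences in the genes of its own repressors, the period (PER) and cryptochrome (CRY) proteins, and in those of the nuclear receptors NR1D1 and NR1D2 (REV-ERB alpha and beta), which in turn repress BMAL1. NAMPT makes nicotinamide mononucleotide, the rate-limiting step of NAD salvage, and is itself under the control of CLOCK and BMAL1. The NAD-dependent deacetylase SIRT1 acts on BMAL1 and PER2, and the NAD-consuming enzyme PARP1 modifies CLOCK, so that NAD supply and the loop are linked in both directions.

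NAMPT was lower in each siNAMPT library. In siControl it stood at 173 ± 10.4 CPM (SD, n = 3) and in siNAMPT at 28.5 ± 1.53 CPM (SD, n = 3), a level 83.5% lower. CPM is the count scaled to a common library size, with TMM factors. The log2 fold change was −2.60 (SE 0.07, adjusted p = 2.60e-06, edgeR). An exact two-sided permutation test gave p = 0.1, the smallest that 3 libraries against 3 allow. Total counts were 19510796 to 22364717 per library.

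BHLHE40 and DBP were higher in siNAMPT than in siControl, and NR1D2, CLOCK and CRY1 were lower. The libraries of the groups overlapped for PER1, PER3 and NR1D1. With PER2, a rise close to the threshold, 3 of the 10 genes were called higher and 3 lower at an adjusted p under 0.05 in edgeR's quasi-likelihood test. Much of the transcriptome differed between the groups: of all genes tested 42.7% were called, 20.8% as higher and 21.9% as lower. Loss of NAMPT and other effects of the siRNA cannot be told apart in this design. The libraries of the groups did not overlap for 4 clock genes that were higher and 3 that were lower. Over all genes tested, 54.9% did not overlap, 27.2% higher and 27.7% lower. The median log2 fold change was 0.16 over the 10 genes and 0.00 over all genes tested. These shares describe the set and single nothing out about it, and the sections that follow take the genes by role. Fewer cells of a type and less RNA per cell cannot be told apart in these bulk samples.

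**Figure D1:**
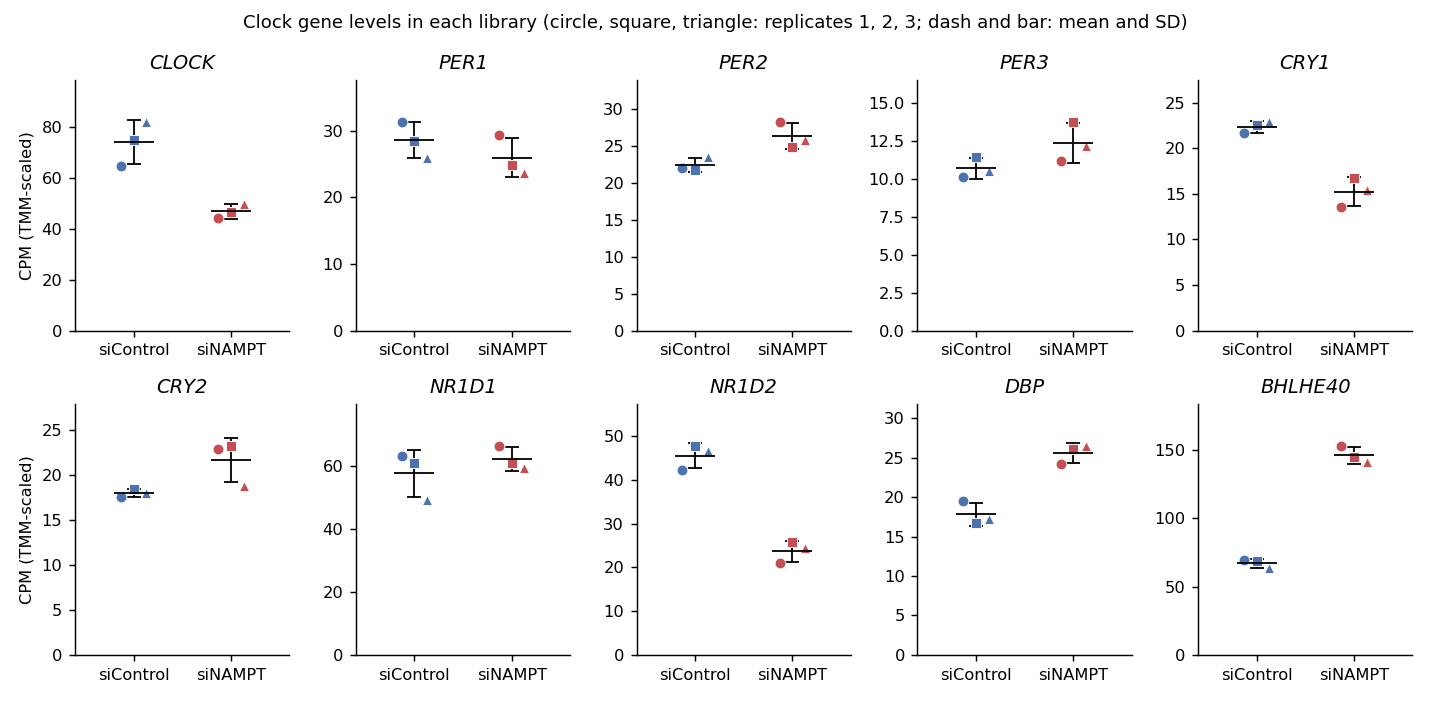
Level of each clock gene in each library, in CPM scaled by TMM on axes that start at 0, with siControl in blue and siNAMPT in red. Symbols mark replicates 1, 2 and 3, the long dash is the mean and the bar is the SD over 3 libraries. BHLHE40 and NR1D2 show the widest separation, and the groups overlap for PER1, PER3 and NR1D1.

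CLOCK encodes the histone acetyltransferase and DNA-binding partner of the activating dimer (chr4:55427903-55547138, minus strand, GRCh38, protein coding). Its level was 64.8, 75.0 and 82.1 CPM in the siControl libraries. It was 44.0, 46.8 and 49.6 CPM in the siNAMPT libraries. Every siNAMPT library lay below every siControl library, and the siControl libraries were the more spread. The mean fell from 74.0 ± 8.71 to 46.8 ± 2.81 CPM (SD, n = 3), a level 36.7% lower with a log2 fold change of −0.66 (SE 0.10, adjusted p = 0.0016, edgeR).

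Of 6 genes listed as partners of CLOCK and activators of BMAL1, 2 were tested, and they moved in opposite directions. BMAL1, listed in the table as ARNTL, was at 13.4, 14.6 and 14.0 CPM in siControl and at 21.4, 22.6 and 23.3 CPM in siNAMPT. It rose with a log2 fold change of 0.68 (SE 0.08, adjusted p = 5.3e-04, edgeR). BMAL2, listed as ARNTL2, a paralog that can also pair with CLOCK, was at 85.2, 92.6 and 92.6 CPM in siControl and at 45.8, 56.6 and 57.1 CPM in siNAMPT. It fell with a log2 fold change of −0.76 (SE 0.10, adjusted p = 7.8e-04, edgeR). Neither gene's groups overlapped. Per kilobase of exon, BMAL2 was the more abundant paralog in both groups, at 12.9 against 2.08 CPM per kb in siControl and 7.62 against 3.34 CPM per kb in siNAMPT. The others were too low to test. NPAS2, the paralog of CLOCK, had 3 to 17 reads per library, and RORA and RORB, activators of BMAL1 that compete with the REV-ERB proteins, had at most 9.

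The period genes encode the scaffold of the repressive complex, and 2 of the 3 were not called. PER1 (chr17:8140472-8156506, minus strand) was at 31.4, 28.5 and 25.9 CPM in siControl and at 29.3, 24.9 and 23.7 CPM in siNAMPT. The groups overlapped and the log2 fold change was −0.14 (SE 0.11, adjusted p = 0.347, edgeR). PER3 (chr1:7784320-7845177, plus strand) was at 10.1, 11.4 and 10.5 CPM in siControl and at 11.2, 13.8 and 12.2 CPM in siNAMPT. Here too the groups overlapped, with a log2 fold change of 0.21 (SE 0.11, adjusted p = 0.176, edgeR).

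PER2 (chr2:238244038-238290102, minus strand), the period protein deacetylated by SIRT1, was at 22.1, 21.7 and 23.5 CPM in siControl and at 28.3, 24.9 and 25.9 CPM in siNAMPT. The groups did not overlap, and its log2 fold change was 0.23 (SE 0.08, adjusted p = 0.047, edgeR). The call was lost in 8 of 12 alternative analyses, always with the same direction. It was lost without siControl replicate 1, 2 or 3 (adjusted p = 0.125, 0.142 and 0.063) and without siNAMPT replicate 1 or 3 (adjusted p = 0.110 and 0.084). DESeq2 gave an adjusted p of 0.096, edgeR with no filter on low counts 0.106 and edgeR with a replicate block 0.065.

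Of the 2 cryptochromes, the direct inhibitors of the CLOCK and BMAL1 dimer, CRY1 fell and CRY2 did not pass the test. CRY1 (chr12:106991364-107093829, minus strand) was at 21.7, 22.5 and 22.9 CPM in siControl and at 13.6, 16.8 and 15.5 CPM in siNAMPT. It was lower in every siNAMPT library, with a mean 31.8% lower and a log2 fold change of −0.55 (SE 0.10, adjusted p = 0.0032, edgeR). CRY2 (chr11:45847118-45883248, plus strand) was at 17.5, 18.4 and 18.0 CPM in siControl and at 22.9, 23.2 and 18.8 CPM in siNAMPT. The groups did not overlap, but siNAMPT replicate 3 lay close to the controls. The log2 fold change of CRY2 was 0.27 (SE 0.10) and missed the threshold (adjusted p = 0.064, edgeR). Without siNAMPT replicate 3 it was 0.36 and passed it (adjusted p = 0.018, edgeR).

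NR1D2 showed the largest fall of the 10 genes. It encodes REV-ERB beta, a haem-binding nuclear receptor that represses BMAL1 (chr3:23945260-23980618, plus strand). Its level was 42.2, 47.7 and 46.5 CPM in siControl and 21.1, 25.7 and 24.4 CPM in siNAMPT. The lowest siControl library was well above the highest siNAMPT library. The mean fell from 45.5 ± 2.90 to 23.7 ± 2.39 CPM (SD, n = 3), which is 1.92-fold lower, with a log2 fold change of −0.94 (SE 0.09, adjusted p = 2.9e-04, edgeR). Of all genes tested, 4.77% had a lower log2 fold change.

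NR1D1, which encodes its paralog REV-ERB alpha (chr17:40092787-40100725, minus strand), was not called. Its level was 63.1, 60.9 and 49.2 CPM in siControl and 66.4, 60.8 and 59.3 CPM in siNAMPT. The groups overlapped, siControl replicate 3 was the lowest of the 6, and the log2 fold change was 0.11 (SE 0.10, adjusted p = 0.441, edgeR). The annotated position of NR1D1 shares 1081 bases with THRA, the thyroid hormone receptor alpha gene on the opposite strand. THRA rose from 27.8 ± 1.77 to 36.8 ± 1.25 CPM (SD, n = 3), with a log2 fold change of 0.41 (SE 0.07, adjusted p = 0.0042, edgeR). Whether the authors' counting used strand is not given in the sources used here, so reads of the shared bases cannot be told apart.

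BHLHE40 showed the largest rise. It encodes DEC1, a basic helix-loop-helix repressor that occupies the same E-boxes as CLOCK and BMAL1 (chr3:4979116-4985323, plus strand). Its level was 69.5, 68.5 and 63.5 CPM in siControl and 153, 144 and 141 CPM in siNAMPT. The groups were far apart beside a spread of 4.80% (CV) in siControl and 4.23% in siNAMPT. The mean rose from 67.1 ± 3.22 to 146 ± 6.18 CPM (SD, n = 3), which is 2.18-fold higher, with a log2 fold change of 1.12 (SE 0.06, adjusted p = 2.7e-05, edgeR). Of all genes tested, 3.76% had a higher log2 fold change, and 8.28% were called with a change of at least 2-fold in either direction. BHLHE41, which encodes the related repressor DEC2, was at 27.3, 25.7 and 23.6 CPM in siControl and at 27.2, 30.5 and 27.3 CPM in siNAMPT. Those groups overlapped, with a log2 fold change of 0.15 (SE 0.09, adjusted p = 0.195, edgeR). CIART, a further repressor of the dimer, had a log2 fold change of −0.19 (SE 0.13, adjusted p = 0.281, edgeR).

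DBP encodes a PAR bZIP activator that binds D-boxes, the second promoter element of the clock, and its gene is a classical output of CLOCK and BMAL1 (chr19:48630030-48637438, minus strand). Its level was 19.5, 16.8 and 17.3 CPM in siControl and 24.2, 26.2 and 26.5 CPM in siNAMPT. All 3 siNAMPT libraries were above all 3 siControl libraries. The mean rose from 17.8 ± 1.47 to 25.6 ± 1.23 CPM (SD, n = 3), which is 1.44-fold higher, with a log2 fold change of 0.52 (SE 0.09, adjusted p = 0.0027, edgeR). Its relative TEF, an activator at the same sites, was at 49.2 to 50.2 CPM over the siControl libraries and at 75.2, 74.0 and 69.1 CPM in siNAMPT. TEF rose with a log2 fold change of 0.55 (SE 0.06, adjusted p = 4.5e-04, edgeR). NFIL3, the repressor that opposes them at D-boxes, rose as well, with a log2 fold change of 0.64 (SE 0.09, adjusted p = 0.0015, edgeR). The activator and repressor genes of D-boxes were thus all higher, while HLF, the other member of the PAR bZIP family, was too low to test.

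**Figure D2:**
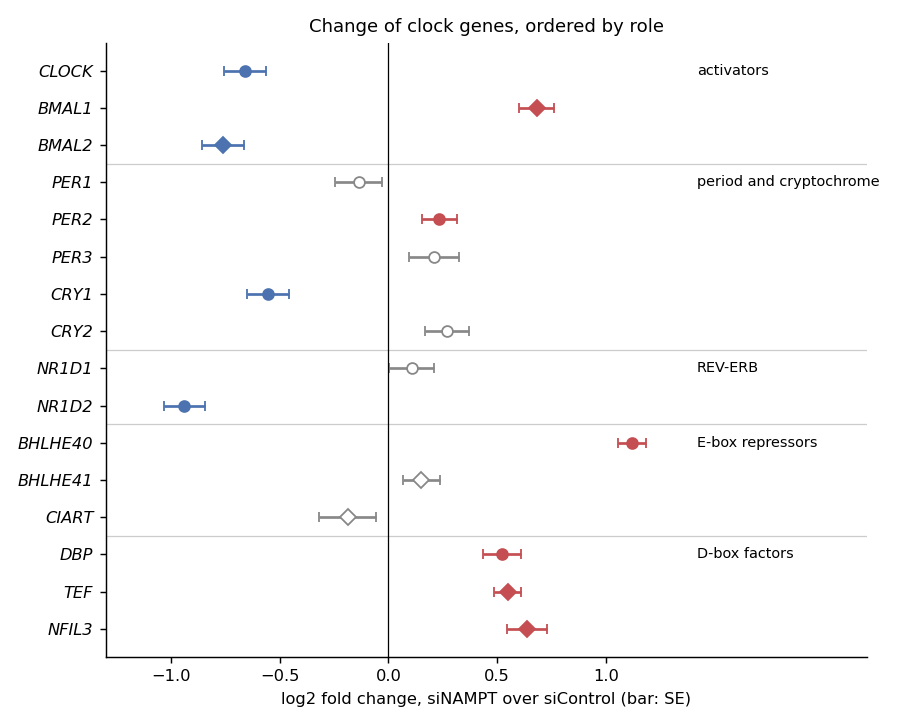
Log2 fold change of siNAMPT over siControl from edgeR, with its SE as a bar, for the 10 clock genes (circles) and 6 related genes (diamonds), ordered by role. Filled red and blue symbols passed an adjusted p of 0.05 as higher and lower, and open symbols did not; within the activators, the cryptochromes and the REV-ERB pair, values lie on both sides of 0.

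Paralogs were also set against each other within each library. The ratio of CRY1 to CRY2 in each siNAMPT library, divided by the geometric mean of siControl, was 0.475, 0.579 and 0.661, below all siControl libraries. The mean log2 difference was −0.82, with an SD of 0.03 over the siControl libraries and 0.24 over the siNAMPT libraries. The ratio of NR1D1 to NR1D2 was 2.49, 1.87 and 1.92 times that of siControl, a log2 difference of 1.06 (SD 0.25 and 0.23). The ratio of PER1 to PER2 had a log2 difference of −0.37 (SD 0.19 and 0.09), again with no overlap. The ratio of PER2 to PER3 had a log2 difference of 0.03 (SD 0.13 and 0.24), and its groups overlapped. Exact two-sided permutation tests of the 4 ratios gave p = 0.1 for the first 3, the smallest possible, and p = 1 for the last, or 0.133 and 1 after Benjamini-Hochberg adjustment over 4. With 3 libraries against 3, this exact test cannot go below 0.1. The ratio of BMAL1 to BMAL2, chosen after its values were seen and not tested, was 3.01, 2.58 and 2.63 times that of siControl.

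**Figure D3:**
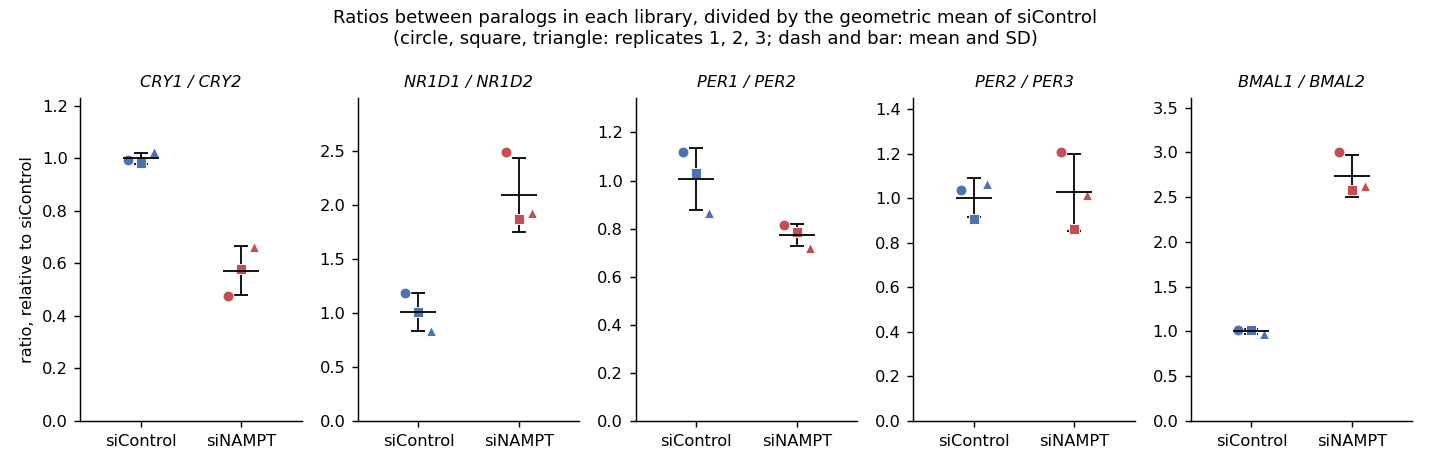
Ratio between 2 paralogs in each library, divided by the geometric mean of that ratio over the siControl libraries, on linear axes that start at 0 (siControl blue, siNAMPT red, dash and bar for mean and SD). The groups stand apart for each pair but PER2 to PER3.

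Levels were also summed over paralogs, per kb of exon. The summed level of NR1D1 and NR1D2 was 28.6 ± 2.51 CPM per kb in siControl (SD, n = 3) and 26.5 CPM per kb in siNAMPT, where the SD was 0.998, with overlapping libraries. That of the period genes was 8.66 ± 0.264 and 9.07 ± 0.544 CPM per kb, also overlapping. The cryptochrome sum was 7.31 ± 0.184 CPM per kb in siControl and 6.50 ± 0.499 in siNAMPT, with no overlap. The sum of BMAL1 and BMAL2 differed most, at 14.2, 15.4 and 15.3 CPM per kb in siControl and 9.74, 11.5 and 11.6 CPM per kb in siNAMPT, also with no overlap. These sums weight the more abundant paralog, which is NR1D1 for the REV-ERB pair and BMAL2 for the BMAL pair.

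Levels of the 10 genes were ranked as CPM per kb of merged annotated exons. Merged exons take in every annotated transcript, and for DBP they cover 6544 of the 7409 bases of the gene. Where the RNA made is shorter than the merged exons, its level per kb comes out too low. The order is thus one of this measure and may not be that of transcript numbers. In siControl the order was NR1D1 (20.8), BHLHE40 (17.5), NR1D2 (7.82), CLOCK (6.29), CRY1 (4.42), PER1 (4.08), PER2 (3.26), CRY2 (2.90), DBP (2.73) and PER3 (1.32 CPM per kb). Neighbours with overlapping libraries were NR1D1 and BHLHE40, CRY1 and PER1, and CRY2 and DBP. In siNAMPT, BHLHE40 led at 38.1 CPM per kb and stood apart from NR1D1 at 22.4 CPM per kb. Below them NR1D2 (4.08), CLOCK (3.98), DBP (3.92), PER2 (3.83), PER1 (3.71), CRY2 (3.49) and CRY1 (3.01 CPM per kb) formed a chain in which each overlapped the next. PER3, at 1.53 CPM per kb, was lowest and apart in both groups. A group of 7 genes that spanned 2.73 to 7.82 CPM per kb in siControl therefore lay between 3.01 and 4.08 CPM per kb in siNAMPT. With the deposited FPKM, which divide by another length, PER2 ranked above CRY1 and PER1 in siControl. In siNAMPT that measure broke the chain: PER2 ranked above NR1D2 and apart from it, and CRY1 stood apart from DBP. By FPKM the 7 genes spanned 1.67 to 5.19 in siControl and 1.74 to 3.63 in siNAMPT. The chain and the width of the span thus depend on the length used.

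The clock dimer and BHLHE40 both act through the E-box, so the promoters of the 10 genes were read for it. RefSeq promoter entries (GRCh38.p14, 250 bases before to 50 after a start) were found for all 10 genes. Both strands were searched for the E-box CACGTG, the related E′ box CACGTT, the D-box TTATGTAA and AGGTCA, the core of nuclear receptor sites, none of which overlapped another in the entries printed here. The E-box was in the entries of BHLHE40, PER1 and NR1D2, the last only at its second annotated start. The 4 entries below show 1 gene that rose strongly, 1 that fell strongly and 2 period genes that moved little or not past the threshold, with E-box, E′ box and D-box in capitals. BHLHE40 lies at chr3:4979187-4979486 (plus strand), NR1D2 at its second start at chr3:23945871-23946170 (plus strand), PER1 at chr17:8152355-8152654 (minus strand) and PER2 at chr2:238288561-238288860 (minus strand).
BHLHE40: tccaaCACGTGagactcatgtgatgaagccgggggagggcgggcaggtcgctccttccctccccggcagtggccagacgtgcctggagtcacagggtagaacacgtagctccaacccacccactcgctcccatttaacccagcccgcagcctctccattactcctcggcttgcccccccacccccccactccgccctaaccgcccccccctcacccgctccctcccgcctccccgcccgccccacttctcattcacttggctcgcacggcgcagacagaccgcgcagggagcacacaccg
NR1D2: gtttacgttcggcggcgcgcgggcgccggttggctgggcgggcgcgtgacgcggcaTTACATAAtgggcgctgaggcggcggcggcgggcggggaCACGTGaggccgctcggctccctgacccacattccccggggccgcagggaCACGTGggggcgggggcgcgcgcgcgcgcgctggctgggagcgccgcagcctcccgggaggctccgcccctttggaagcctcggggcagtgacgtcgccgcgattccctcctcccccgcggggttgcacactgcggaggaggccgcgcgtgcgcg
PER1: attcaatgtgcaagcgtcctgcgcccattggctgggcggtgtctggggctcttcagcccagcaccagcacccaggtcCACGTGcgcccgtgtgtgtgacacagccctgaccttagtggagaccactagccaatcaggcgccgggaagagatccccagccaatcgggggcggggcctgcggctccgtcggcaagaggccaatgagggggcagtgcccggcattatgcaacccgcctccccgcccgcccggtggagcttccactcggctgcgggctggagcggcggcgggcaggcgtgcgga
PER2: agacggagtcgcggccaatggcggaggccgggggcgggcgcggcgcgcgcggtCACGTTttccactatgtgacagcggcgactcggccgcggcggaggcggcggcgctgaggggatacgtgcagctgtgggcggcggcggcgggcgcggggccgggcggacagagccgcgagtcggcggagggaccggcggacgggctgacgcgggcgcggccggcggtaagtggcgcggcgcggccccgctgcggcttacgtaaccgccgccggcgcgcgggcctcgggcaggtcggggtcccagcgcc
The E-box started 245 bases before the start in BHLHE40, 155 and 105 bases before it in NR1D2 and 173 bases before it in PER1. NR1D2 also held a D-box, read on the other strand as TTACATAA, 194 bases before the second start. PER2 held the E′ box 197 bases before its start. The gene with the largest rise, that with the largest fall and PER1, which was not called, thus share the E-box letters. The E′ box was also in the entries of CRY1 and NR1D1, and in only 1 of 2 entries each of CLOCK and CRY2. The D-box was also in 1 of 2 entries of PER3. DBP held none of these letters in its entry. Over 35116 RefSeq promoters of the same length, 7.26% held the E-box, 5.34% the E′ box, 0.886% the D-box and 13.8% AGGTCA, which among the 10 genes was in CRY2 and PER1. These are matches of letters and not measured binding sites.

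The 6-base word ACCATA in 3′ untranslated regions (UTRs) came from an earlier scan of the same libraries for words that go with lower levels in siNAMPT, so its direction is not independent of these data. In 1 GENCODE 29 transcript per gene, the UTR of NR1D2 held 3 copies in 3199 bases and that of CLOCK 2 copies in 7512 bases. That of PER1 held 1 copy in 596 bases, and the other 7 clock genes held none, among them CRY1, which fell, with 638 bases searched. The copies are shown here within 28 bases on the gene's strand, with the word in capitals, first those of NR1D2 (chr3:23977482-23977509, chr3:23978123-23978150 and chr3:23979226-23979253), then those of CLOCK (chr4:55429972-55429999 and chr4:55428927-55428954).
NR1D2 copy 1: tatatgtgtatACCATAtgtggagatag
NR1D2 copy 2: agtccacaccaACCATAttattcagggt
NR1D2 copy 3: gtacaatataaACCATAattgtgattta
CLOCK copy 1: ttttgttttgcACCATAttcttcttagg
CLOCK copy 2: ttaccattcagACCATActggaatgatt
In NR1D2, 1 copy was preceded by T (TACCATA) and 1 was followed by A (ACCATAA). Of 12099 UTRs searched over all genes tested, 22.5% held ACCATA. Of those genes 39.6% were called lower and 14.9% higher, with a median log2 fold change of −0.19. Of the genes without the word, 20.8% were called lower and 22.7% higher, with a median of 0.01. Among UTRs of at least 2000 bases the shares called lower were 36.5% with the word and 18.4% without it. Among the clock genes, 2 of the 3 that were called lower held it and none of the 3 called higher did. Those 2, CLOCK and NR1D2, have the longest UTRs of the clock genes, and long UTRs often hold the word. Among UTRs of at least 2000 bases, 1792 held it and 1934 lacked it. The count among clock genes thus does not separate the word from UTR length. The part of the word in the fall of NR1D2 and CLOCK was not tested.

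The wider clock machinery and related signals were taken from 6 lists with 74 genes, those partners included, of which 66 were tested. Of these, 12 were called higher, 25 lower and 29 not, with a median log2 fold change of −0.09, beside 20.8% higher and 21.9% lower over all genes tested.

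Among kinases, phosphatases and ubiquitin ligases that set the life of PER and CRY proteins, 17 of 19 genes were tested, 2 were higher and 7 lower, with a median of −0.13. FBXW11, which encodes the ligase subunit beta-TrCP2 that marks phosphorylated PER for destruction, fell from 64.1 ± 1.10 to 33.3 ± 0.286 CPM (SD, n = 3, log2 −0.95, adjusted p = 3.5e-05, edgeR). The phosphatase subunit genes PPP1CC and PPP1CB moved in opposite directions, with log2 fold changes of −0.64 and 0.48 (adjusted p = 0.0026 and 0.0023, edgeR). FBXW7, which encodes a further ligase subunit, rose (log2 0.62, adjusted p = 0.014, edgeR). The principal PER kinase genes CSNK1D and CSNK1E had log2 fold changes of 0.10 and 0.01 (adjusted p = 0.199 and 0.919, edgeR).

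Among other repressors and modifiers of the complex, all 19 genes were tested, 3 were higher and 8 lower, with a median of −0.17. NCOR1, the corepressor recruited by REV-ERB proteins, fell from 165 ± 7.20 to 87.4 ± 3.67 CPM (SD, n = 3, log2 −0.92, adjusted p = 4.7e-05, edgeR). SFPQ, which encodes a PER-associated RNA-binding repressor, fell with a log2 fold change of −0.68 (adjusted p = 4.7e-05, edgeR). Both NAD-consuming enzymes named above were lower. SIRT1 was at 22.5, 21.1 and 23.0 CPM in siControl and at 15.4, 16.9 and 17.1 CPM in siNAMPT (log2 −0.43, adjusted p = 0.0046, edgeR). PARP1 fell from 562 ± 9.90 to 469 ± 5.52 CPM (SD, n = 3, log2 −0.26, adjusted p = 0.0021, edgeR).

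Among PAR bZIP and other output genes, 9 of 10 were tested, 5 were higher and 1 lower, with a median of 0.27. KLF9, a zinc-finger output gene, was at 2.87, 2.69 and 2.21 CPM in siControl and at 5.27, 6.65 and 5.68 CPM in siNAMPT (log2 1.18, adjusted p = 0.0011, edgeR). NOCT, which encodes the rhythmic phosphatase nocturnin, acting on NADP cofactors, fell with a log2 fold change of −1.22 (adjusted p = 1.1e-04, edgeR).

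Some of the 10 genes also respond to signals outside the clock, and lists of other targets of those signals were read beside them. PER1 is also induced by glucocorticoids and cAMP. Of 9 other targets tested, 1 was higher, 3 lower and 5 not called, with a median of −0.05. Over all genes tested, 20.8% were called higher and 21.9% lower, which holds beside both lists here. FKBP5 rose (log2 0.32, adjusted p = 0.0069, edgeR), while ERRFI1 fell (log2 −2.00, adjusted p = 2.0e-05, edgeR). BHLHE40 is also induced in hypoxia. Of 10 other hypoxia targets tested none was called higher, 5 were called lower and 5 were not called, with a median of −0.52. Their summed level overlapped between the groups, at 649 to 736 CPM in siControl and 625 to 723 CPM in siNAMPT. Those that fell most are given next. BNIP3, a mitophagy receptor gene, fell from 21.2 ± 0.226 to 5.66 ± 0.245 CPM (SD, n = 3, log2 −1.90, adjusted p = 1.5e-05, edgeR). VEGFA, the angiogenic growth factor gene, fell from 86.1 ± 9.30 to 36.3 ± 2.30 CPM (SD, n = 3, log2 −1.25, adjusted p = 9.4e-05, edgeR). The part of these signals in the levels of PER1 and BHLHE40 was not tested.

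The genes with the pattern most like those of BHLHE40 and NR1D2 were taken by the smallest Euclidean distance between log2 CPM values, centred on the siControl mean, over 6 libraries and 11089 genes. For BHLHE40 they were TRAPPC6A (distance 0.107), AKR1B10 (0.111) and AL035661.1 (0.145). TRAPPC6A was at 5.41, 5.05 and 4.79 CPM in siControl and at 12.6, 12.1 and 11.4 CPM in siNAMPT. For NR1D2 they were CXCL1 and MYH10 (0.108 each) and MZT1 (0.128). MYH10 was at 29.2, 30.5 and 31.1 CPM in siControl and at 14.4, 16.5 and 16.4 CPM in siNAMPT.

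The labelled cell type was read against its markers. Of 18 corneal endothelial markers, 10 had a mean of at least 1 CPM. COL8A1, COL8A2, AQP1, SLC4A4, NCAM1 and ZP4 were among those below it and TFAP2B was listed at 0 in all libraries, so several genes by which these cells are usually recognised were near 0. Of 15 epithelial markers 13 had at least 1 CPM. Among them the basal keratin KRT5 was at 1929 ± 110 CPM in siControl (SD, n = 3) and at 2292 ± 127 CPM in siNAMPT (SD, n = 3). KRT12 was at 0 in all libraries. The summed level of the epithelial markers differed between the groups, at 6805 to 7295 CPM in siControl and 7931 to 8778 CPM in siNAMPT. This sum weights abundant genes such as KRT5, and single markers went both ways. Of 13 tested, 5 were called higher and 4 lower, beside 20.8% and 21.9% of all genes tested. The endothelial sum was 2600 to 2606 and 2403 to 2523 CPM. Stromal markers, with 3 of 8 at 1 CPM or more and KERA at 0, summed to 12.7 to 15.0 and 20.9 to 23.0 CPM. Vascular markers, with 2 of 5 and KDR at 0, summed to 9.69 to 11.4 and 13.4 to 15.3 CPM. The part of these shifts in the changes of the clock genes was not tested.

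Directions held across the alternative analyses, and calls held for all but PER2 and CRY2. Over up to 12 alternatives, the log2 fold change of BHLHE40 lay between 1.08 and 1.15, that of DBP between 0.37 and 0.59, that of CRY1 between −0.62 and −0.38, that of CLOCK between −0.75 and −0.49 and that of NR1D2 between −1.0 and −0.73. PER3 was below the minimum of the analyses on FPKM and was not tested there.

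**Figure D4:**
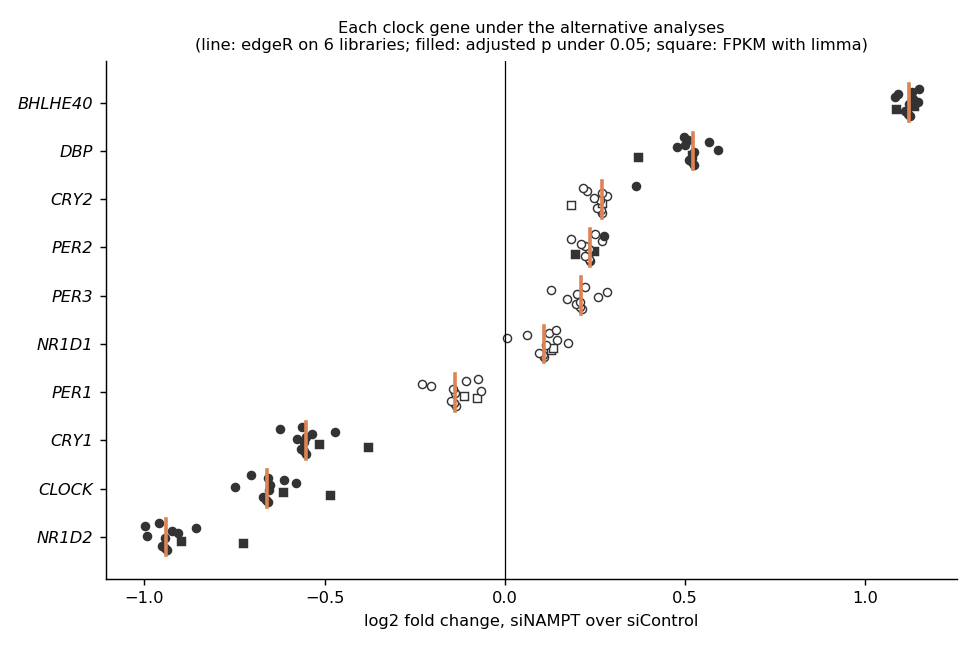
Log2 fold change of siNAMPT over siControl for each clock gene under 12 alternative analyses (10 for PER3), with the value from edgeR on all 6 libraries as an orange line. Filled symbols passed an adjusted p of 0.05 and squares are analyses of log2 FPKM with a pseudocount; 5 genes stayed filled throughout, and PER2 and CRY2 hold symbols of both kinds.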

How the data were processed

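Messenger RNA libraries of B4G12 cells were sequenced with paired ends (Illumina NovaSeq, per the labels' protocols), 3 for siControl and 3 for siNAMPT. The authors deposited whole-number counts per gene with no normalization, per the file headers. The deposited FPKM, named so in the file headers, were found to equal the count divided by the library total and by the summed length of a gene's distinct annotated exons, bases shared by exons counted more than once. That divisor was within 1 base of the GENCODE 29 value for 86.4% of 15145 tested genes and for all 10 clock genes. Levels of the clock genes were therefore ranked as CPM per kb of merged exons, a choice made after seeing the data. Builds named in the submitters' processing notes are GRCh38 and mm10, without their roles. Of the gene IDs, 98.5% were in GENCODE 29, and 94.7% of those had the same position there. For the aligner, the counting program and its use of strand, the sources used here give nothing.

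The quasi-likelihood test of edgeR 4.0.16 (R 4.3.3) was run on the counts after filterByExpr and TMM scaling, two-sided, with no term but the group and with Benjamini-Hochberg adjustment over 15213 genes at a threshold of 0.05. The SE is the log2 fold change divided by the root of F. TMM factors lay between 0.988 and 1.02, and 3 counts, the floor for a gene not seen, were 0.132 to 0.152 CPM. Data were also simulated for this comparison over 15213 genes, with 50 genes given each size of change. Of those changed 1.25-fold, 0% were called. Calls rose to 40% of those changed 1.5-fold, 70% (2-fold) and 92% (4-fold), and 10 unchanged genes were called falsely. Among all genes called in the simulation, the false calls made up a larger share than the threshold of 0.05. Far fewer genes were changed there than the 42.7% called in the libraries, which makes the adjustment stricter. The shares of changed genes called are thus not the sensitivity of the real test, in which PER2 (1.18-fold) and PARP1 (1.20-fold) passed. Small changes may still be missed.

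Alternatives were DESeq2 1.42.0, edgeR with RLE scaling, edgeR without the low-count filter, limma 3.58.1 on log2(FPKM + 1) and log2(FPKM + 0.1) for genes with an FPKM of at least 1 in 3 libraries, a block for the replicate number, and the omission of each library in turn. The clock genes and the lists were chosen with earlier results of these data known. All clock genes, NAMPT and core partners were named. Of each list at most the 3 largest rises and 3 largest falls past the threshold were named, and any tested member could be; some genes that this rule takes are left out here. Genes that overlap a clock gene and the 3 genes of most like pattern (mean of at least 5 CPM, 0.5 added before log2) could be named too. Tables were built with pandas 2.3.3 in Python 3.11.15 and plots with matplotlib 3.10.9.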

Additional observations from a re-analysis of the deposited data

How the results depend on the processing

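Of the 10 clock genes, between 5 and 6 were called in each of 12 alternatives, and CLOCK, CRY1 and NR1D2 were called lower in all of them. No value of a clock gene changed direction. Only PER2 lost its call (8 of 12 alternatives) and only CRY2 gained one (1 of 12, without siNAMPT replicate 3). Leaving out 1 library at a time, the count of all genes called lay between 5145 and 5886, beside 6500. The log2 difference in the ratio of CRY1 to CRY2 then lay between −0.93 and −0.69, that of NR1D1 to NR1D2 between 0.93 and 1.18, that of PER1 to PER2 between −0.48 and −0.29 and that of PER2 to PER3 between −0.10 and 0.14. For 28 other named or listed genes, 308 of 330 values kept direction and side of the threshold, 22 lost the call and none reversed. The replicate numbers were not shown to pair the samples, and a check on 3 libraries per group cannot exclude that they do. Deviations from the group means correlated at 0.0085 to 0.070 between libraries of the same number, below 0.1. Between libraries of different numbers they correlated at −0.075 to 0.025. Of the siNAMPT libraries, replicates 1 and 3 correlated best with the siControl library of the same number (0.070 and 0.054). The siNAMPT replicate 2 correlated best with siControl replicate 3 (0.025). With the replicate number as a block, 6336 genes and 5 clock genes were called. At these total counts, NPAS2, RORA and RORB were too low to test.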
